A study of Solanum lycopersicum with 6 samples.

Results

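The genes described here carry the ethylene signal in tomato, from the receptors to the first transcription factors. They were found as all probe sets (groups of short array probes read as 1 value) whose gene symbol begins with ETR, CTR, EIN or EIL followed by a digit. This gave 13 genes, each with 1 probe set, out of 803 genes with a symbol and 10101 probe sets tested. They are the receptor genes ETR1, ETR2, ETR4, ETR5 and ETR6, the kinase genes CTR1, CTR3 and CTR4, the transducer gene EIN2 and the transcription factor genes EIL1 to EIL4. The choice used the symbols alone.

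Transcripts were measured on 1-colour arrays in fruits of Micro-Tom, a dwarf tomato cultivar. The tissue label calls them mature green, while the design text speaks of ripening plants, so the stage is not settled by the labels. In the control group, 3 arrays held RNA from plants under normal conditions with liquid fertilizer diluted 500 times. In the drought group, 3 arrays held RNA from plants under drought, which were given this dilution weekly. Less water may therefore have come with a different feeding schedule. All plants were kept in a greenhouse set to 25 °C in daylight hours and 20 °C later on, with harvest 30 to 40 days past flowering. No label states that replicate arrays held different plants. The p-values therefore speak only of array-to-array spread, which may be technical. In fruit tissue, fewer cells of a type and less RNA per cell cannot be told apart.

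Ethylene is the gas that starts ripening in tomato. Its receptors sit in the membrane of the endoplasmic reticulum and, without ethylene, keep CTR kinases active, which hold the pathway off. When ethylene binds, the receptors and CTR kinases fall silent, EIN2 passes the signal on, and the EIN3-like (EIL) factors switch on response genes, among them those of ethylene response factors. Receptors are therefore negative regulators, and in tomato less ETR4 or ETR6 brings ripening forward.

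The deposited values were on a log2 scale with very little movement between arrays. Over the 6 arrays, 75.7% of all tested probe sets had a range (highest less lowest value) under 0.001. Array medians ran from 7.8974 to 7.9021 in control and from 7.9048 to 7.9072 in drought. Rescaling the arrays therefore moved nearly all probe sets one way. The median difference over all of them was -0.00351 after quantile normalization and -0.00553 after each array had its own median subtracted (centring), and 90.8% and 96.7% of them then lay below 0. A sign under either rescaling thus carries no information on a gene whose difference is smaller than this shift. Centring moved every difference by the same amount, while quantile normalization moved probe sets by unlike amounts. Differences are given on the deposited scale and may not equal fold changes as a scanner would measure them. Drought was compared with control by limma over all tested probe sets, with p-values adjusted by the Benjamini-Hochberg method and a threshold of 0.05, and intervals are limma's 95% intervals for the single probe set. "Separated" below means that all 3 drought values lay on one side of all 3 control values.

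No receptor, kinase, transducer or EIL gene passed the test. Of the 13 probe sets, 0 were called, where 0.762% of all tested probe sets were (77 of 10101), while 5 had an unadjusted limma p under 0.05, where 25.0% of all tested probe sets did. The differences ran from -0.000491 for EIL1 to 0.00985 for ETR6. As a change in linear signal on the deposited scale, these are -0.0341% and 0.685%. All 13 intervals lay between -0.0157 and 0.0354, or -1.08% and 2.48% in linear signal. Separation of the groups was seen in 5 of 13 (38.5%), 3 with drought above control and 2 below, where 34.8% of all tested probe sets were separated, 20.5% above and 14.3% below. The members' share was thus near that of all probe sets. An exact permutation test of 3 against 3 arrays cannot give a two-sided p below 0.1, and the 5 separated genes each had that value.

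**Figure D1:**
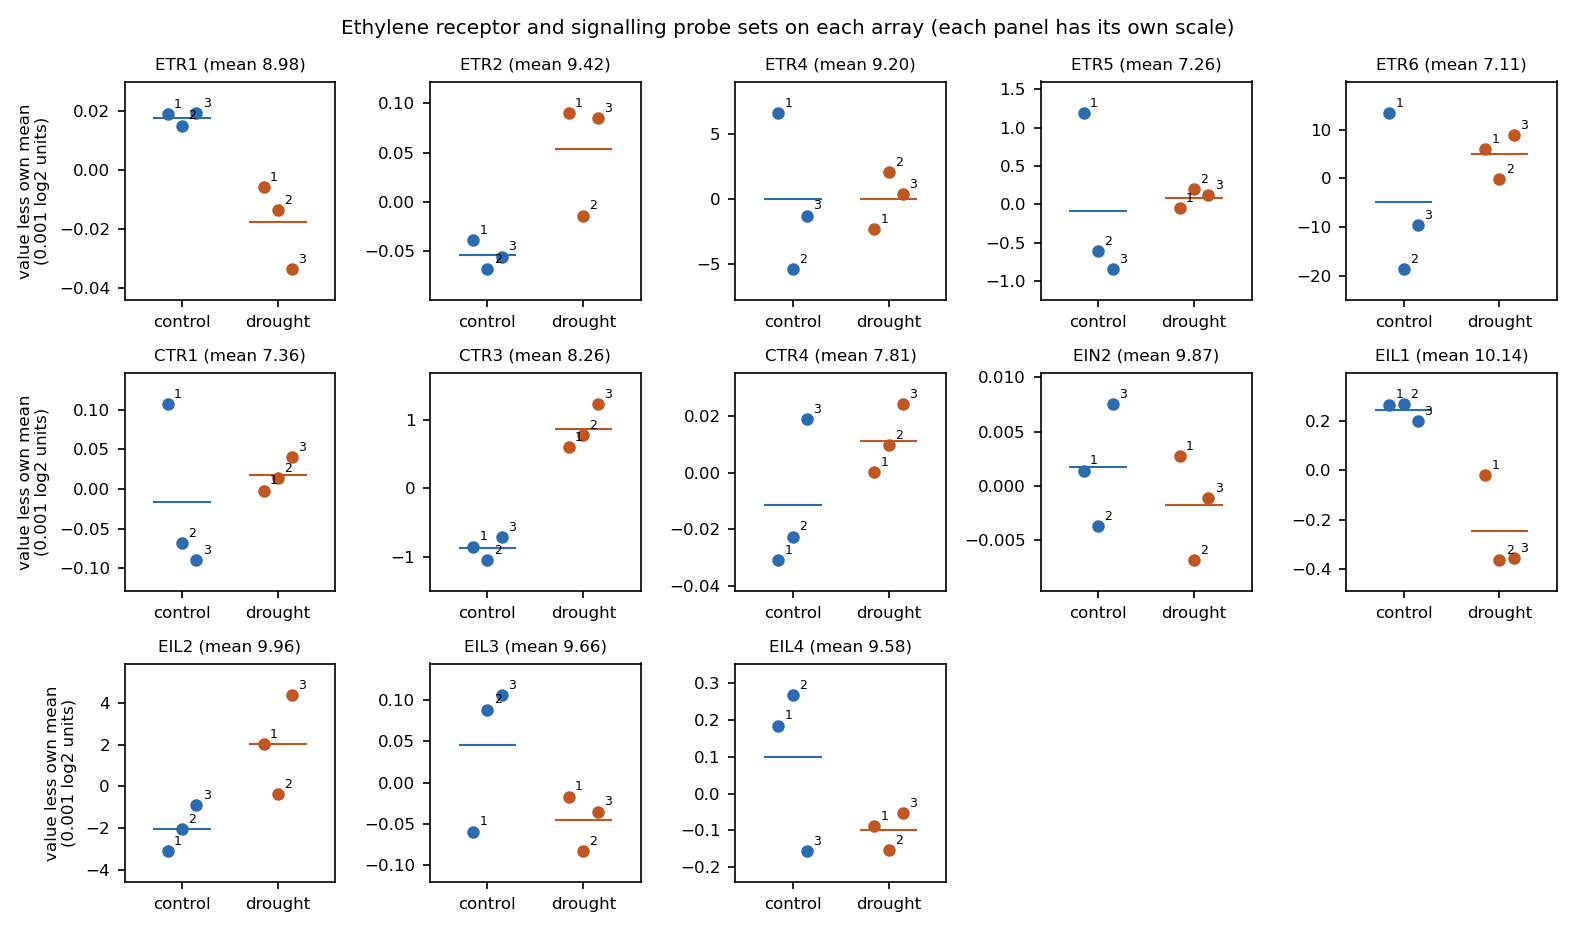
Value of each of the 13 probe sets on each array, less its own mean over the 6 arrays, in units of 0.001 log2 (own vertical scale per panel, points numbered by replicate, lines at group means). Control and drought points do not overlap in ETR1, ETR2, CTR3, EIL1 and EIL2, and the scales differ greatly between panels.

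Among the receptors, ETR1 and ETR2 belong to the subfamily with a conserved histidine kinase domain. ETR1 stood at 8.979868, 8.979864 and 8.979868 in control replicates 1 to 3 and at 8.979843, 8.979835 and 8.979816 in drought replicates 1 to 3. The drought values lay below the control values on every array, but only in the fifth decimal. The difference of -3.55e-05 ± 8.24e-06 (SE) had a limma adjusted p of 0.104. ETR2 stood at 9.422933, 9.422903 and 9.422916 in control and at 9.423061, 9.422957 and 9.423056 in drought. Here drought was the higher group, with drought replicate 2 nearest to the controls. The difference was 0.000108 ± 3.35e-05 (SE, limma adjusted p = 0.154) as deposited, -0.000934 after quantile normalization and -0.00542 after centring, both within reach of the common shift.

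ETR4, ETR5 and ETR6 belong to the other receptor subfamily, whose kinase domain has diverged. They moved far more between arrays than ETR1 and ETR2, and most of that movement was among the controls. ETR6 had the widest range of the 13 genes. It stood at 7.1222, 7.0901 and 7.0992 in control replicates 1 to 3 and at 7.1148, 7.1085 and 7.1177 in drought replicates 1 to 3. Control replicate 1 was the highest array and control replicate 2 the lowest, and the drought values lay between them. The group means differed by 0.00985 ± 0.0095 (SE, limma adjusted p = 0.588, interval -0.0157 to 0.0354), by 0.019 without control replicate 1 and by 0.00298 without control replicate 2.

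ETR4 showed the same order of controls 1 and 2 at its extremes. Its control values were 9.2075, 9.1955 and 9.1996 and its drought values 9.1986, 9.2029 and 9.2012. The groups overlapped fully, with means of 9.2009 ± 0.00608 and 9.2009 ± 0.0022 (SD, n = 3 each) and an interval of the difference from -0.00954 to 0.00961 (limma adjusted p = 0.999). ETR5 stood at 7.2606, 7.2588 and 7.2586 in control and at 7.2594, 7.2597 and 7.2596 in drought. Control replicate 1 was again the highest array, and the drought arrays lay between it and the other controls. ETR5 had a limma adjusted p of 0.909.

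The SD within the control group was 0.0166 for ETR6, 0.00608 for ETR4 and 0.00112 for ETR5, against 0.00467, 0.0022 and 0.000124 in drought. In none of these 3 genes were the groups separated. Over all tested probe sets the SD was larger in drought in 28.7%, so a wider control group was the usual case on these arrays. Among the 13 genes the SD was larger in drought in 5 and larger in control in 8. The 5 were the separated genes ETR1, ETR2, CTR3, EIL1 and EIL2, as noticed after their values were seen. Over all tested probe sets the SD was larger in drought in 31.6% of the separated and 27.1% of the overlapping ones.

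CTR kinases are Raf-like protein kinases that act as brakes on the pathway. CTR3 came nearest to the threshold of all 13 genes. It stood at 8.2567, 8.2565 and 8.2569 in control replicates 1 to 3 and at 8.2582, 8.2584 and 8.2588 in drought replicates 1 to 3. All drought arrays lay above all control arrays, and the gap between the groups was wider than the range within either. The difference was 0.00174 ± 0.000202 (SE, interval 0.0012 to 0.00228, limma adjusted p = 0.0539), or 0.121% in linear signal. It ran from 0.00156 to 0.00187 when each array was left out in turn (adjusted p = 0.0519 to 0.185). With array weights it passed (adjusted p = 0.0452). Quantile normalization gave -0.00042 and centring -0.00379. The deposited difference of CTR3 was smaller in size than the median shift under either rescaling.

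CTR1 and CTR4 did not show such a gap. CTR1, also known as TCTR1, stood at 7.358626, 7.358450 and 7.358429 in control and at 7.358517, 7.358532 and 7.358559 in drought. Its control replicate 1 was the highest array, as in ETR4, ETR5 and ETR6, and its groups overlapped (limma adjusted p = 0.794). By its name ending in s_at, the CTR1 probe set may read more than 1 sequence. CTR4 stood at 7.812187, 7.812195 and 7.812237 in control and at 7.812218, 7.812228 and 7.812242 in drought. Control replicate 3 lay among the drought arrays and the groups overlapped (limma adjusted p = 0.455).

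EIN2, the membrane protein that links the kinases to the nucleus, was the steadiest of the 13 genes. It stood at 9.869925, 9.869920 and 9.869931 in control and at 9.869926, 9.869916 and 9.869922 in drought. The groups overlapped, and the whole range of 1.44e-05 was close to the median range of 1.12e-05 in 69 control probe sets for bacterial and phage sequences, which match no tomato gene. The difference of -3.5e-06 had an interval of -1.58e-05 to 8.81e-06 (limma adjusted p = 0.702).

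The EIL factors are transcription factors that act on ethylene response genes, and in tomato they can stand in for each other. EIL1 and EIL2 differed in opposite directions as deposited. EIL1 stood at 10.144209, 10.144212 and 10.144142 in control replicates 1 to 3 and at 10.143924, 10.143579 and 10.143586 in drought replicates 1 to 3. The drought arrays lay below all controls, and drought replicate 1 was the nearest to them. The difference was -0.000491 ± 0.000111 (SE, interval -0.000789 to -0.000194, limma adjusted p = 0.10).

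EIL2 stood at 9.9569, 9.9580 and 9.9591 in control replicates 1 to 3 and at 9.9620, 9.9597 and 9.9644 in drought replicates 1 to 3. The drought arrays lay above all controls, with drought replicate 2 only just above control replicate 3. The difference was 0.00403 ± 0.00144 (SE, interval 0.000152 to 0.00791, limma adjusted p = 0.191). Quantile normalization gave -0.00331 and centring -0.0015. The deposited difference was smaller in size than the shift by centring (-0.00553). It was larger than the median difference after quantile normalization (-0.00351), which moved EIL2 by more than that.

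EIL3 and EIL4 had overlapping groups. EIL3 stood at 9.661577, 9.661725 and 9.661743 in control and at 9.661619, 9.661553 and 9.661601 in drought, with control replicate 1 among the drought arrays (limma adjusted p = 0.375). EIL4 stood at 9.579172, 9.579255 and 9.578832 in control and at 9.578899, 9.578835 and 9.578934 in drought, with control replicate 3 just below the drought arrays (limma adjusted p = 0.41). Without control replicate 3 the difference of EIL4 went from -0.000197 to -0.000324 (adjusted p = 0.0549). In the RefSeq gene table (assembly SLM_r2.1), EIL1 and EIL4 lie close together, with 1 gene between them.

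**Figure D2:**
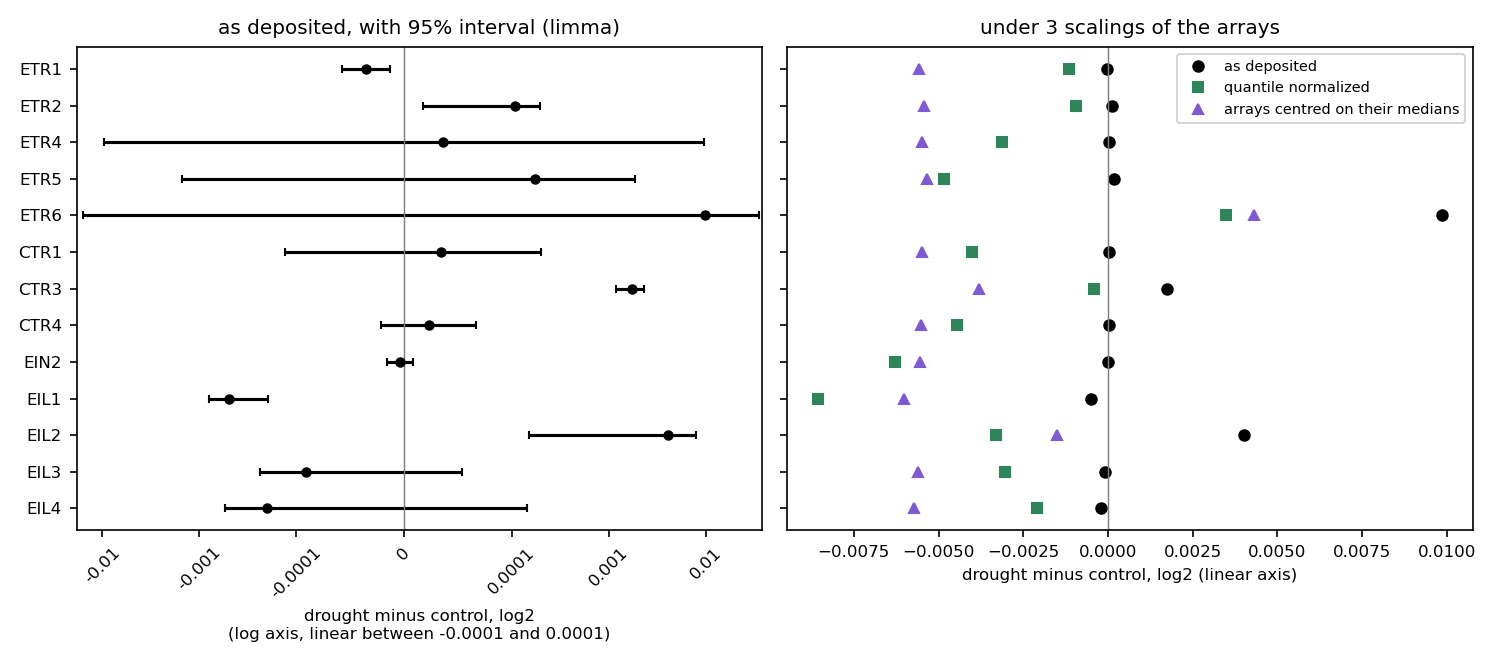
Left, difference of drought minus control in log2 units for each gene with limma's 95% interval, on the values as deposited (log axis, linear near 0). Right, the same differences under 3 scalings, namely as deposited, quantile normalized, or centred on the array medians (linear axis): 8 of 13 lie above 0 as deposited and 1 of 13, ETR6, after either rescaling, which put 90.8% and 96.7% of all tested probe sets below 0.

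Under rescaling the members shifted with nearly all probe sets. As deposited, 8 of 13 genes were higher in drought and 5 lower, where 4968 and 5133 of all 10101 probe sets were. The members' median difference was 3.42e-05 against -1.07e-07 over all tested probe sets. After quantile normalization 12 of 13 were lower in drought, where 90.8% of all probe sets were, with a median of -0.00312 against -0.00351 over all probe sets, and 0 passed. After centring 12 of 13 were lower too, where 96.7% of all were, with a median of -0.0055 against -0.00553 over all, and 9 passed, where 93.1% of all probe sets did. Separated genes numbered 2 of 13 after quantile normalization, where 37.5% of all probe sets were separated, and 10 of 13 after centring, where 93.9% were. The array medians differed by up to 0.00977, which is larger than the deposited difference of 12 of the 13 genes. ETR6 was the one gene with a higher mean in drought under all 3 scalings, with 0.00348 after quantile normalization and 0.00432 after centring, and it missed the threshold under each of them.

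Differences taken between relatives on the same array do not depend on centring. These pairs were chosen after their values were seen and are given without a test. EIL2 less EIL1 was -0.1873, -0.1862 and -0.1850 in control replicates 1 to 3 and -0.1819, -0.1839 and -0.1792 in drought replicates 1 to 3. The groups were separated, which had to follow from EIL2 being separated upward and EIL1 downward. The mean of EIL2 less EIL1 was 0.00452 higher in drought. CTR3 less CTR1 was 0.8981, 0.8981 and 0.8984 in control and 0.8997, 0.8998 and 0.9003 in drought, again without overlap. This too had to follow, as the range of CTR1 (0.000197) was far smaller than the gap between the groups of CTR3. ETR6 less ETR4 ran from -2.1054 to -2.0853 in control and from -2.0944 to -2.0836 in drought, and these overlapped.

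The movement of each gene can be set against the 69 bacterial and phage control probe sets, whose widest range over the arrays was 0.000467. The range was wider than that in 6 of the 13 genes, ETR6 (0.0321), ETR4 (0.012), EIL2 (0.00749), CTR3 (0.00228), ETR5 (0.00204) and EIL1 (0.000633), and in 32.6% of all tested probe sets. The other 7 genes, EIL4, CTR1, EIL3, ETR2, CTR4, ETR1 and EIN2, stayed within it. These controls show technical spread only. Against 22 housekeeping control probe sets for tomato genes, whose widest range was 0.02, 1 of the 13 genes, ETR6, had a wider range and 12 did not, and no difference between groups was larger than that range. No member had a range over 0.1, which 268 tested probe sets (2.65%) had. The median range of the 13 was 0.000424, against 0.000129 over all tested probe sets.

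**Figure D3:**
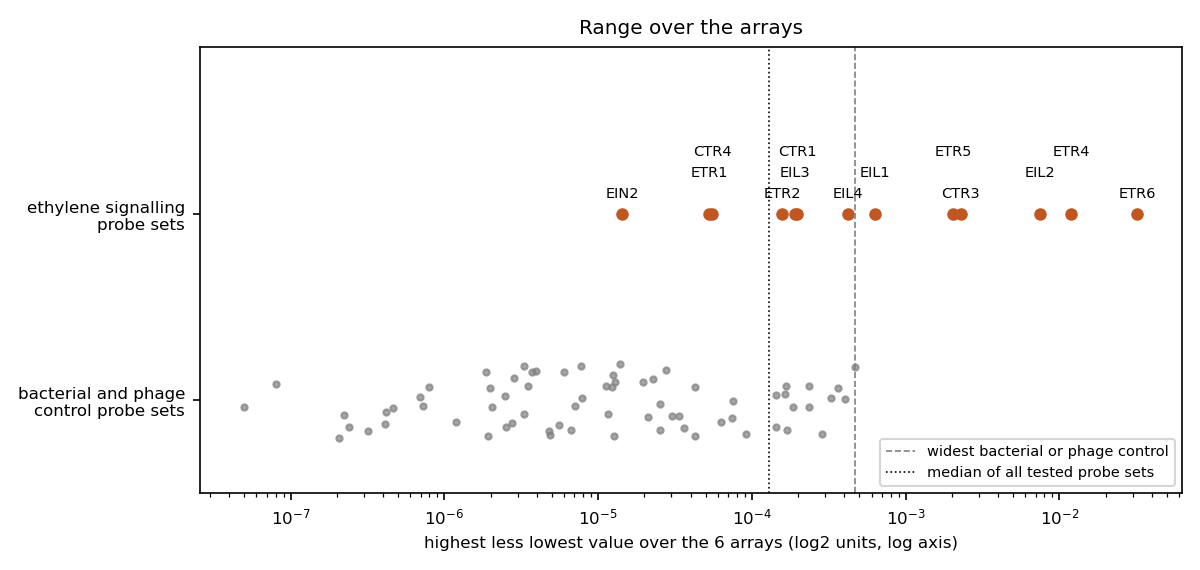
Range over the 6 arrays (log axis, log2 units) of the 13 ethylene signalling probe sets and of 69 bacterial and phage control probe sets. The genes spread from 1.44e-05 for EIN2 to 0.0321 for ETR6, and 6 of them lie beyond the widest of these controls at 0.000467. Housekeeping controls, not drawn, reach 0.02.

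A control array was the highest in 9 of 13 genes and the lowest in 9, where controls were the highest in 57.4% and the lowest in 57.3% of all tested probe sets. Control replicate 1 was the highest array in 4 of 13 genes (30.8%), where it was the highest in 26.3% of all tested probe sets. Leaving out control replicate 1 raised the number of separated genes from 5 to 9 of 13, with 2 controls then to be separated from, where the share of all tested probe sets rose from 34.8% to 42.9%. The number was 7 without control replicate 3 and 5 without any other array, and the share of all probe sets was not counted there. No array, when left out, brought any of the 13 past the threshold.

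The named genes with values nearest to ETR6 were sought among 896 other probe sets with a symbol, by the mean absolute difference over the 6 arrays after each was set to its own mean. The nearest was LOC544267 (0.00527), followed by both probe sets of CYP85A1 (0.00621 and 0.00702), the gene of a brassinosteroid oxidase. ETR6 itself deviated from its mean by 0.00948 on average. In LOC544267 and in both CYP85A1 probe sets, control replicate 1 lay above the other controls, as in ETR6. The search itself favours this likeness, as it used the same 6 arrays. None of these 3 probe sets passed the test (limma adjusted p = 0.587 for LOC544267 and 0.37 and 0.343 for CYP85A1).

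Some probe sets in the rest of the ethylene pathway held much larger differences than its signalling core, and none passed either. The median size of the difference was 0.000363 over the 41 other probe sets and 0.000108 over the 13 members. Over the ethylene targets alone it was 5.18e-05. Of 41 probe sets for 37 other genes of the pathway, 0 were called. This list was chosen with earlier results of these data known. Its shares beside those of all probe sets are therefore a description and cannot show an excess. In size, 14 of the 41 differences were beyond that of ETR6, the largest member difference, and all 14 were lower in drought. Differences beyond it in either direction were seen in 6.21% of all tested probe sets, and how many of those were lower was not counted. The 14 include every probe set of the synthesis gene ACO6. One of the 14, that of the ripening gene E8, turned positive without control replicate 1 (0.0462). Separation was seen in 12 of the 41 (29.3%, where 34.8% of all tested probe sets were separated), 1 with drought above control and 11 below (26.8%, where 14.3% of all were separated downward). The 11 include every probe set of ACO6 and both of ERF3, so they stand for fewer genes. Their differences ran from -2.05e-06 in PG2 to -0.275 in ER1. Downward separation was seen in 43.9% of the 41 after quantile normalization, where 34.2% of all probe sets had it, and in 85.4% after centring, where 91.7% of all had it. The list of other genes held no further receptor with a probe set.

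Among 15 probe sets of ethylene synthesis, 11 had a lower mean in drought as deposited and 0 passed. Over all 10101 tested probe sets, 5133 had a lower mean in drought. The 11 include all 3 probe sets of ACO6. ACO6 encodes an ACC oxidase, the enzyme of the last step to ethylene. Its probe set with the smallest p stood at 8.7148, 8.7274 and 8.6792 in control and at 8.5809, 8.6408 and 8.6318 in drought. All drought arrays lay below all controls, by -0.0893 ± 0.0226 (SE, limma adjusted p = 0.117), and its second probe set differed by -0.0659 (adjusted p = 0.139). The third probe set of ACO6 was separated as well, at -0.0151. All 3 were below 0 under both rescalings too. This adds no weight, since both rescalings moved nearly all probe sets downward.

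Among 12 probe sets of ethylene response factors, the transcription factors downstream of the EIL factors, 9 had a lower mean in drought as deposited. This was so in 5133 of all 10101 tested probe sets. Of the 12, 0 passed. LOC606712, which also carries the name TERF1, stood at 6.4242, 6.4050 and 6.4090 in control and at 6.3683, 6.3650 and 6.3694 in drought. The drought arrays lay together below all controls, by -0.0452 ± 0.00571 (SE, limma adjusted p = 0.0539, and 0.0443 with array weights). Both group means of LOC606712 (6.41 in control and 6.37 in drought) lay under the 25th percentile of every array (6.63 to 6.64). The more variable of 2 ERF3 probe sets differed by -0.0183 (adjusted p = 0.204). LOC606712 and this ERF3 probe set were below 0 under both rescalings too, which again adds no weight given the downward common shift.

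Among 13 probe sets of ethylene targets, ER1, an ethylene-responsive fruit transcript, stood at 6.4761, 6.6290 and 6.5703 in control and at 6.3120, 6.2724 and 6.2674 in drought. The groups were separated, and the means lay -0.275 ± 0.0447 apart (SE). The difference was below 0 under all 3 scalings, which adds no weight, as both rescalings moved nearly all probe sets downward. Both group means of ER1 (6.56 in control and 6.28 in drought) lay under the 25th percentile of every array (6.63 to 6.64). The limma adjusted p of ER1 was 0.0639, or 0.046 with array weights. ER49 was separated the other way by 5.18e-05 (adjusted p = 0.159), but lay below 0 under both rescalings. The one other kinase of the list, TCTR2, differed by 2.84e-05 (adjusted p = 0.222) and was below 0 there too. ER1, LOC606712 and ACO6 lay farther from 0 than any of the 13 members and had separated groups. ETR6, with the largest member difference, had overlapping groups. However, ER1, LOC606712 and ACO6 were named for their small p, which favours separated groups. The target ER5 (-0.333) and the response factor PTI5 (-0.296) lay farther still from 0, and their groups overlapped.

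**Figure D4:**
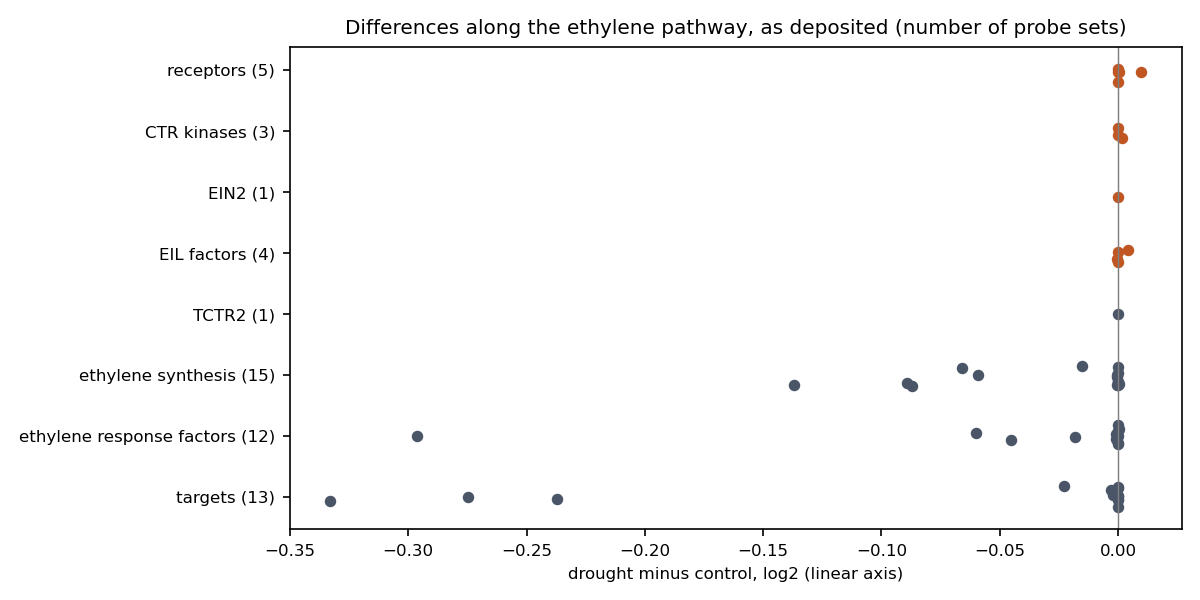
Difference of drought minus control in log2 units (linear axis, as deposited) for the 13 ethylene signalling probe sets (orange) and 41 other pathway probe sets (grey), with 1 point per probe set. The signalling genes lie between -0.000491 and 0.00985, while 14 of the others lie farther below 0 than ETR6 lies above it.

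Markers of tissue and stage were read beside these values. The 3 chlorophyll-binding protein genes, which mark green tissue, were present, with a summed level (log2 of summed linear values) of 11.3362 to 11.3644 in control and 11.3268 to 11.3551 in drought and overlapping groups. The 3 lipid transfer protein genes of the epidermis summed to 12.1362 to 12.1409 in control and 12.1296 to 12.1360 in drought, and 2 of the 3, ltpg1 and TSW12, were separated downward, by -0.00507 and -0.0203. Of the ripe fruit markers, 7 probe sets of 5 genes summed to 10.6647 to 10.6935 in control and 10.6660 to 10.6743 in drought. Of these 7, 3 had means under the 25th percentile of every array (6.63 to 6.64), namely PG2, the polygalacturonase of ripe fruit, ACS2 and 1 of 3 Psy1 probe sets, and the other 4, for ACS4, E8 and Psy1, lay above it. Drought lay below control on every array in PG2 and 1 Psy1 probe set, with differences of -2.05e-06 and -4.77e-05. Seed markers were not analysed here. None of these 13 marker probe sets passed the test, and the part of the epidermal and other markers in the members' values was not tested.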

How the data were processed

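Biotin-labelled cRNA made from 100 ng of total RNA was hybridized to 6 arrays, per the labels' protocols. The deposited values are probe set summaries made by the authors, taken as log2 from the values themselves (5.46 to 15.8 over the tested probe sets). The sources name no method of background correction, normalization or summary (not given in the sources used here). For arrays, their number limits the precision.

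Samples were grouped by title. Of 10209 probe sets, 108 control probe sets were left out and 10101 tested. Symbols came from the platform annotation, which gave 1 symbol to 909 probe sets, several to 0 and none to 9192. All 13 members were found in the RefSeq table under the same symbol. No coordinates are printed. Sequences were not used here.

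Drought minus control was fitted with lmFit and eBayes of limma 3.58.1 under R 4.3.3. Tests were two-sided, adjusted by Benjamini-Hochberg over all tested probe sets, with no filter or block. The test was tried on simulated arrays. The rule for the members used the symbols alone, but it and the lists were set with earlier results of these data known. Named were all members, in each role of the pathway list the called probe sets or else the 2 with the smallest p, and the 3 probe sets nearest to the most variable member. E8, PG2, ER5 and PTI5 are named beyond this rule or as markers. Alternatives were quantile normalization, median centring, leaving out the dimmest 30%, a replicate block, a trended robust prior, array weights, unmoderated variances, averaged probe sets, unadjusted p-values and leaving out each array. In no pair of arrays did fewer than 47 probe sets differ by more than 0.1, and none was treated as a copy.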

Additional observations from a re-analysis of the deposited data

How the results depend on the processing

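None of the 13 members passed as deposited, after quantile normalization, without the dimmest 30% of probe sets (all 13 remained), with a trended robust prior, with unmoderated variances, with averaged probe sets or without any one array. The labels do not say whether the replicate number pairs the samples. Deviations from the group means had correlations of -0.0924, -0.0225 and -0.106 between same-numbered arrays. These cannot settle it, as the deviations of 3 arrays sum to 0 within each group. As a block, the replicate number gave 0 calls over all probe sets and 0 among the members. Over all probe sets the count of 77 became 0 after quantile normalization, 9406 after centring, 391 with array weights, 7 with unmoderated variances and 2524 at an unadjusted p under 0.05, and 0 to 546 with an array left out, highest without control replicate 3. Members called numbered 9 after centring, 1 with array weights (CTR3) and 5 at an unadjusted p under 0.05. Other pathway probe sets called numbered 37 after centring, 2 with array weights and 7 unadjusted. Without the dimmest 30% of probe sets, 24 of the 41 other pathway probe sets remained, and 0 were called. Separated members numbered 2 after quantile normalization, 10 after centring and 5 to 9 with an array left out. The members' median difference was -0.00312 after quantile normalization, -0.0055 after centring and -6.24e-06 to 9.65e-05 with an array left out.

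Differences above 0 as deposited turned below 0 after quantile normalization in CTR1 (-0.00400), CTR3 (-0.00042), CTR4 (-0.00447), EIL2 (-0.00331), ETR2 (-0.000934), ETR4 (-0.00312) and ETR5 (-0.00485). After centring they were -0.0055 in CTR1, -0.00379 in CTR3, -0.00551 in CTR4, -0.0015 in EIL2, -0.00542 in ETR2, -0.0055 in ETR4 and -0.00536 in ETR5. Centring shifts every probe set of an array by the same amount. With an array left out the sign changed in CTR1 (-2.16e-06 to 9.65e-05), ETR4 (-0.00264 to 0.00334) and ETR5 (-0.000204 to 0.000817), and it did not change in the other 10 genes. The cause of the dependence on single arrays was not tested.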
